A study of Mus musculus with 25 samples.

Results

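Cycling cells were examined in single-cell RNA-seq of lung cells from mice with and without bleomycin injury. They were chosen by the detection of at least 3 of 7 mitotic genes (Mki67, Top2a, Cdk1, Birc5, Ube2c, Ccnb1 and Cenpf, each with 1 or more UMI, a UMI being 1 counted RNA molecule) in cells with no UMI of Cdh5, the cadherin of endothelial junctions. The rule found 73 cells among 12059 kept cells in 5 libraries (0.605%), and 66 of the 73 came from the libraries labelled week 6. Because the rule used the mitotic genes of these same cells, every difference between cycling and other cells is given below as a description, with no test. The 7 genes were also tested in 20 bulk RNA-seq libraries of the same kind of cells, which the rule did not use.

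The mice carried Fas alleles with exon 9 floxed and a tamoxifen-inducible Cre recombinase under the Col1a1 promoter (Col1a1-Cre-ERT2;Fas fl/fl). After intratracheal bleomycin they received tamoxifen (Fas-/-, called FasDel in the labels) or corn oil (Fas+/+, called WT in the labels), so the deletion and tamoxifen cannot be told apart, and cells that do not use the Col1a1 promoter were not targeted. Naive mice (called control in the labels) had no bleomycin. The study's text gives them the same Cre and floxed Fas alleles, and the labels give no genotype. Cells were sorted as Lin-, negative for CD45, CD31 and CD326, at 3 and 6 weeks, into 5 groups with 4 bulk libraries each and 1 single-cell library each, the latter from pools of 4 mice. Sexes and ages of the mice were not found in the labels.

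A dividing cell copies its DNA in S phase and separates the copies in mitosis. The genes for mitosis are transcribed late in the cycle, so their RNA marks cells in G2 and M phase and is nearly absent from resting cells. In the injured lung, fibroblasts are the mesenchymal cells that deposit collagen, and they can divide after injury. Fas is a death receptor that starts the extrinsic pathway of apoptosis when its ligand binds.

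The 7 genes act at successive steps. Cdk1 is the kinase that drives entry into mitosis and Ccnb1 encodes cyclin B1, its partner. Top2a encodes the topoisomerase that untangles DNA, and Mki67 encodes the Ki-67 protein that coats mitotic chromosomes. Cenpf is a kinetochore protein, Birc5 (survivin) belongs to the complex that corrects chromosome attachment, and Ube2c is an enzyme of the ubiquitin ligase that ends mitosis. Promoters of such genes are known for pairing CCAAT boxes with a CHR element, and the 250 bases before the start of 3 rule genes are printed here as examples that hold both, chosen after the matches were counted. The sequences are RefSeq's on GRCm38.p6, each 5′ to 3′ on the gene's own strand, and capitals mark the letters searched on both strands. The CCAAT box was searched as CCAAT, which reads ATTGG when it lies on the opposite strand. The CHR was searched as TTTGAA, which reads TTCAAA when it lies on the opposite strand, and as TTCGAA, which is its own reverse complement. Top2a lies on the minus strand at chr11:99024190-99024439, Ube2c on the plus strand at chr2:164769679-164769928 and Mki67 on the minus strand at chr7:135716380-135716629.
Top2a: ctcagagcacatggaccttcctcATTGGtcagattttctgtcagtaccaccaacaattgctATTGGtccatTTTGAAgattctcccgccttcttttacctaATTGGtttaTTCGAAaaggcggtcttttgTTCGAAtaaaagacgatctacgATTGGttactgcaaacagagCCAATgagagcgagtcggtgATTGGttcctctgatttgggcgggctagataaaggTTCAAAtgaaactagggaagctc
Ube2c: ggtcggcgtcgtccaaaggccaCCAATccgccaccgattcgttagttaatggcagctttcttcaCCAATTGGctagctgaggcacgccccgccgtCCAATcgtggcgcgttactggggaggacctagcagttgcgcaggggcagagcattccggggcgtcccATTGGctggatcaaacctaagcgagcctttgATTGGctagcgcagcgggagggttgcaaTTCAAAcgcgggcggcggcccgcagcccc
Mki67: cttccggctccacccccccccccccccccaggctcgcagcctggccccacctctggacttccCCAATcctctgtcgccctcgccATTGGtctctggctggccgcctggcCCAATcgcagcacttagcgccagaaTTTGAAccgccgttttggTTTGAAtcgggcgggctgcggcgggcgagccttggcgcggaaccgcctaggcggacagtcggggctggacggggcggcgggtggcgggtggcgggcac

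The Top2a sequence held 6 CCAAT and 4 CHR matches. The Ube2c sequence held 6 CCAAT matches (a forward and a reverse match overlap at 1 place) and 1 CHR match. The Mki67 sequence held 3 CCAAT and 2 CHR matches. In windows of 300 bases (250 before and 50 after the start), 6 of the 7 rule genes had a CCAAT match, against 37.4% of 32851 windows of all genes, and 5 had a CHR match, against 19.2%. Both were present in 5 of 7, against 7.52% of all windows. Among G2 and M genes outside the rule, 16 of 22 windows (72.7%) held both, while S phase genes held CCAAT in 12 of 16 windows and CHR in 2 of 16. The Birc5 window held neither, and the Ccnb1 window held no CHR match. These matches describe letters in the window and do not show that a factor binds there.

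Some features of the libraries bear on every result that follows. The time labels of the single-cell libraries ran against those of the bulk libraries. Across 8164 genes, the difference between week 3 and week 6 in summed mesenchymal cells had a Pearson's r of -0.73 with the same difference in bulk for Fas+/+ and -0.67 for Fas-/- mice (across genes, which are not independent replicates). Cthrc1, a secreted protein of fibrotic fibroblasts, averaged 45.5 CPM in bulk at week 3 and 3.82 CPM at week 6 in Fas+/+ mice. In the single-cell libraries of the same labels it stood at 0.153 and 1.56 UMIs per 10000. Which assay carries the times as labelled cannot be told from these files, and the single-cell libraries are therefore named by their labels throughout.

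Libraries also shared cell barcodes. Between the naive library and each other library 91 to 286 barcodes were shared (11.9% to 37.3% of the naive library), and between the other pairs 91 to 289 (2.48% to 9.85% of either library). Of the kept naive cells, 58.0% had a barcode found in another library. Of the 73 cycling cells, 11 had a barcode present in another library, and 8 of these had far fewer UMIs (534 to 895) than the barcode's other copy (15160 to 84835). In each of those 8, the deeper copy also held at least 3 rule genes. Both cycling cells of the library labelled week 3 Fas-/- were of this kind, as were 3 of 29 and 3 of 37 in the libraries labelled week 6 Fas+/+ and Fas-/-. Without every cell whose barcode had more UMIs elsewhere, 65 cycling cells were left, and the values without them are given beside the results they touch.

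The share of cycling cells was under 0.2% in 3 libraries and near 1% in the other 2. In the naive library 1 of 603 kept cells was cycling (0.166%, 95% exact Clopper-Pearson interval 0.00420 to 0.920). In the library labelled week 3 Fas+/+ it was 4 of 2664 (0.15%, 0.0409 to 0.384), and in that labelled week 3 Fas-/- 2 of 2608 (0.0767%, 0.00929 to 0.277). The intervals of these 3 libraries overlapped, and without barcodes deeper elsewhere the library labelled week 3 Fas-/- had 0 of 2317 cycling cells, which allows a share of up to 0.129% (3 cells of the total, the limit used below for counts of 0). In the library labelled week 6 Fas+/+ 29 of 3240 cells were cycling (0.895%, 0.6 to 1.28), and in that labelled week 6 Fas-/- 37 of 2944 (1.26%, 0.886 to 1.73). These 2 intervals overlapped each other and lay above those of both libraries labelled week 3. Without the barcodes deeper elsewhere the 2 shares were 0.849% (26 of 3063) and 1.35% (34 of 2516). Each condition had 1 library, so no test between conditions was possible, and all single-cell intervals cover counting error only. The direction between labelled weeks is subject to the conflict of labels given above.

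Depth moved with the rule. Cycling cells had a median of 16477 UMIs in the library labelled week 6 Fas+/+, against 7123 in other kept cells, and 27602 against 8570 in that labelled week 6 Fas-/-. When each cell was thinned to 3000 UMIs and the rule applied again, the shares were 0.477% and 0.507%, against 0.0914% and 0.0542% in the libraries labelled week 3 Fas+/+ and Fas-/- and 0 in the naive library. The values labelled week 6 were still above those labelled week 3 at equal depth, but the intervals now overlapped, at 0.247 to 0.831 against 0.0111 to 0.330 in Fas+/+ and 0.253 to 0.905 against 0.00137 to 0.302 in Fas-/- libraries. Endothelial cells took different shares of the libraries, since Cdh5 was detected in 43.5% of kept cells labelled week 6 Fas+/+ and in 9.21% of those labelled week 6 Fas-/-. Over cells without Cdh5 only, the shares of cycling cells were 1.58% and 1.38%, so the order of the genotypes depended on the denominator.

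**Figure D1:**
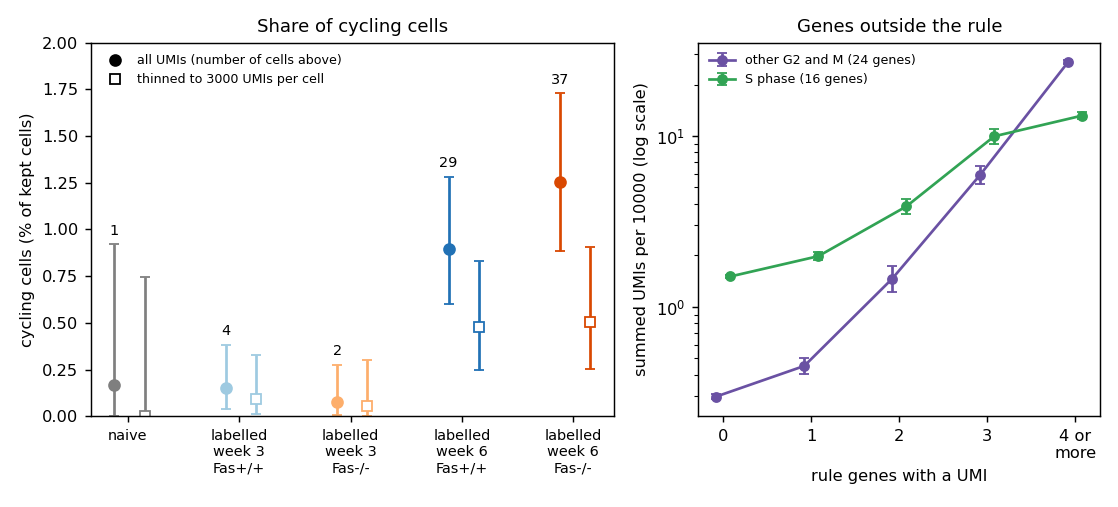
Left, cycling cells as a percentage of kept cells in each single-cell library, with all UMIs (circles, number of cells above) and after thinning to 3000 UMIs (squares); bars are 95% exact intervals for counting error. Right, summed UMIs per 10000 of G2 and M and of S phase genes outside the rule (log scale) by number of rule genes detected, all libraries pooled; the values climb from 0.298 to 27.1 for G2 and M genes.

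How firmly the rule marked division can be read from genes it did not use. Cells with 0 rule genes (9387 cells) had 0.298 UMIs per 10000 summed over 24 other G2 and M genes, and those with 1 (383 cells) had 0.450. The 43 cells with 2 rule genes, just outside the threshold, had 1.46, and the 21 with 3, just inside it, had 5.91. The 52 cells with 4 or more had 27.1. For 16 S phase genes the corresponding values were 1.5, 1.98, 3.86, 9.95 and 13.2. The S phase value of the cells with 3 rule genes came mostly from 1 library. It was 13.4 in 12 cells labelled week 6 Fas-/- and 2.40 in 6 cells labelled week 6 Fas+/+, below the 3.98 of the 18 cells with 2 rule genes there. Of the 29 cycling cells labelled week 6 Fas+/+, 7 had all 7 rule genes and 6 had just 3. Of the 37 labelled week 6 Fas-/-, 6 had all 7 and 12 had just 3.

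Detection of single rule genes was uneven. In the library labelled week 6 Fas+/+, Birc5 was found in 25 of 29 cycling cells, Cdk1 in 24, Mki67 and Cenpf in 23 each, Ube2c in 22, Top2a in 17 and Ccnb1 in 15. In the library labelled week 6 Fas-/- the counts of 37 were 28 for Birc5 and Cdk1, 26 for Mki67, 25 for Ube2c, 23 for Cenpf, 21 for Top2a and 19 for Ccnb1. Birc5 and Cdk1 were found most often and Ccnb1 least often in both. In the other kept cells of these libraries, each of the 7 genes had a UMI in 0.275% to 3.21% of cells.

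Most cycling cells were mesenchymal by their markers, and a minority were erythroid. At least 4 of 6 pan-mesenchymal genes (the collagens Col1a1, Col1a2 and Col3a1, the proteoglycan gene Dcn, and the PDGF receptor genes Pdgfra and Pdgfrb) were detected in 54 of the 73 cells. For the cells labelled week 6 Fas+/+ the count was 22 of 29 (75.9%, 56.5 to 89.7), against 74.1% of other cells without Cdh5. In that labelled week 6 Fas-/- it was 31 of 37 (83.8%, 68.0 to 93.8), against 76.4%. Without the barcodes deeper elsewhere the shares were 84.6% (22 of 26) and 85.3% (29 of 34), against 80.0% and 86.9%. At 3000 UMIs per cell they were 72.7% (16 of 22) against 77.5%, and 60.6% (20 of 33) against 79.5%. Cycling cells thus carried the set about as often as other cells with all UMIs, and less often at equal depth in the library labelled week 6 Fas-/-.

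Of the 19 cycling cells without the set, 7 were erythroid, carrying globin genes and Alas2, which mark maturing red cells. The single cycling cell of the naive library was one of them, with 1492 UMIs of Hba-a1 and 3404 of Hbb-bs. Another 2 came from the library labelled week 3 Fas+/+, 3 from that labelled week 6 Fas+/+ and 1 from that labelled week 6 Fas-/-. The remaining 12 had 534 to 17499 UMIs, and 9 of them held 3 of the 6 pan-mesenchymal genes, 1 short of the set. A blood or lymphatic endothelial set was carried by 2 of the 19, of which 1 was among the erythroid cells, and the immune set by 0 of the 19. Of the 7 cycling cells outside the libraries labelled week 6, just 1 carried the pan-mesenchymal set, so fibroblast identity could be described in the libraries labelled week 6 alone.

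The fibroblast identity genes that cycling cells carried most often were the profibrotic ones. This set held Cthrc1, the matricellular genes Postn, Tnc and Thbs1, the collagen gene Col12a1 and Spp1 (osteopontin), and a cell was said to carry it with at least 3 of 6 detected. With all UMIs, 20 of 29 cycling cells labelled week 6 Fas+/+ carried it (69.0%, against 38.8% of other cells without Cdh5), and 29 of 37 labelled week 6 Fas-/- (78.4%, against 40.8%). At 3000 UMIs per cell the shares were 63.6% (40.7 to 82.8, 14 of 22 cells) against 21.9%, and 60.6% (42.1 to 77.1, 20 of 33 cells) against 24%. Without the barcodes deeper elsewhere, and with all UMIs, they were 73.1% and 82.4% against 42.6% and 47.8%. In cells with Cdh5 the thinned shares were 4.79% and 4.81%. The profibrotic set was therefore more often detected in cycling than in other cells of both libraries at either depth.

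The Wnt2 set holds genes of alveolar fibroblasts that store lipid (Wnt2, Tcf21, Npnt, Limch1, Col13a1, Plin2). With all UMIs it was carried about as often by cycling cells as by others, 58.6% against 55.9% and 51.4% against 58.6%. At 3000 UMIs it was carried less often, 18.2% (5.19 to 40.3) against 44.2% in the library labelled week 6 Fas+/+ and 12.1% (3.40 to 28.2) against 49.5% in that labelled week 6 Fas-/-. Thinning lowered the depth of the cells and also left out 7 and 4 cycling cells under 3000 UMIs, and the part of each in the change was not tested. For the adventitial set (Col14a1, Pi16, Clec3b, Dpp4, Cygb, Rbp4), which marks fibroblasts of vessel and airway sheaths, the thinned shares were 0 of 22 against 15.5%, and 12.1% against 15.1%. The interval for 0 of 22 reached 15.4%. For the inflammatory set, of acute-phase and chemokine genes (Saa3, Lcn2, Hp, C3, Cxcl5, Ccl2), the thinned shares were 9.09% against 7.80% and 6.06% against 7.41%, within the counting intervals of the cycling cells. With all UMIs they were 20.7% against 12.9% and 27.0% against 13.8%, so the direction in the library labelled week 6 Fas-/- turned with depth. The adventitial shares with all UMIs were 13.8% against 27.0% and 21.6% against 27.0%.

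**Figure D2:**
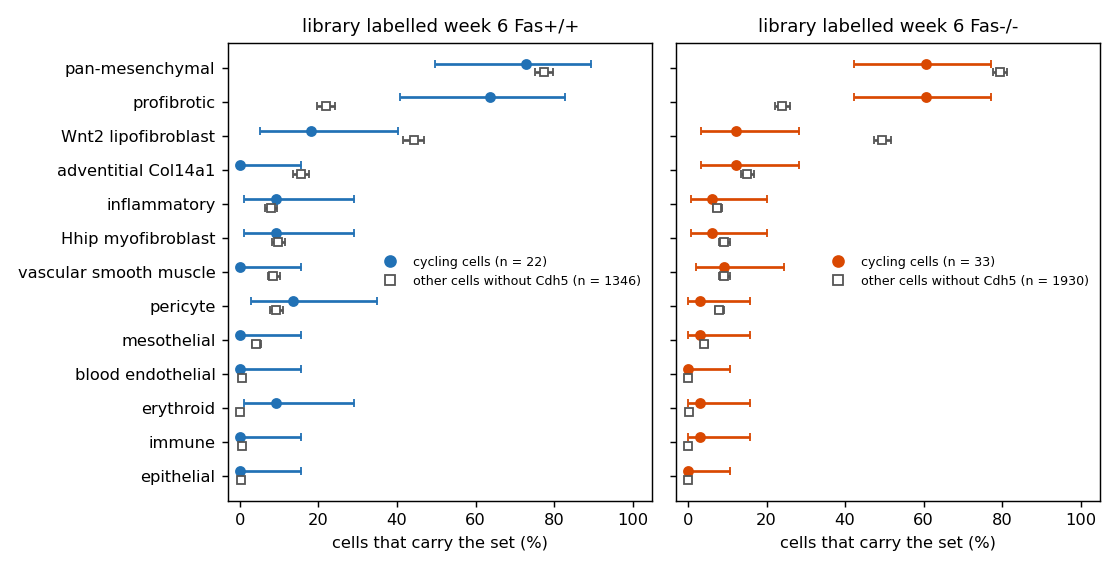
Percentage of cells that carry each marker set at 3000 UMIs per cell in the libraries labelled week 6 Fas+/+ (left) and Fas-/- (right), for cycling cells (filled circles, n = 22 and 33) and other cells without Cdh5 (open squares); bars are 95% exact intervals for counting error. The profibrotic set stands at 63.6% and 60.6% in cycling cells against 21.9% and 24%, and the Wnt2 set at 18.2% and 12.1% against 44.2% and 49.5%.

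The sets were not exclusive. Of the 22 cycling cells labelled week 6 Fas+/+ with the pan-mesenchymal set, 18 carried the profibrotic set, 16 the Wnt2 set, 15 both and 3 neither. Of the 31 labelled week 6 Fas-/-, 25 carried the profibrotic set, 18 the Wnt2 set, 17 both and 5 neither. Read the other way, 2.70% of pan-mesenchymal cells with the profibrotic set were cycling in the library labelled week 6 Fas+/+ (18 of 666), against 0.578% of those without it (4 of 692). In the library labelled week 6 Fas-/- the shares were 2.42% (25 of 1033) and 0.592% (6 of 1013). With set genes counted at 3000 UMIs they were 4.75% against 0.524%, and 3.89% against 0.806%. For the Wnt2 set the thinned shares ran the other way, 0.688% of carriers against 2.24% of other cells, and 0.424% against 2.83%.

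Summed expression levels placed the same genes on a common scale. UMIs were summed over the 22 and 31 cycling cells and over 1336 and 2015 other pan-mesenchymal cells without Cdh5, scaled to 10000, and compared as log2 ratios with 0.1 added. This scale understates the change of low genes. Of 1937 genes whose median level over the 2 libraries was at least 1 UMI per 10000 in cycling or in other cells, 102 were 2-fold or more higher in cycling cells of both libraries (5.27%) and 144 were 2-fold or more lower (7.43%). The median log2 ratio over all 1937 genes was 0.19, and the ratios below are to be read relative to it.

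Genes of division outside the rule were the highest. Summed over all 24 other G2 and M genes, the level was 20.7 UMIs per 10000 in cycling and 0.322 in other cells labelled week 6 Fas+/+, and 21.1 and 0.322 in those labelled week 6 Fas-/-. For all 16 S phase genes it was 10.3 and 1.69, and 12.4 and 1.65. Among the 24, the 10 genes that reached 1 UMI per 10000 did so through the cycling cells alone, as did 3 of the 16 S phase genes, so the filter itself made them high and their medians of 3.48 and 2.09 are given for the plot of ratios only. Cenpa, the histone of centromeres, stood at 2.90 UMIs per 10000 in cycling cells and 0.0539 in others in the library labelled week 6 Fas+/+, and at 3.02 and 0.0437 in that labelled week 6 Fas-/-. Its log2 ratio of 4.36 was the highest of all genes outside the rule with 1 UMI per 10000. Next came Pclaf (3.91), a factor bound to PCNA in replication, Cks2 (3.89), a partner of Cdk1, the spindle gene Hmmr (3.81), Ccnb2 (3.80), which encodes cyclin B2, and Cdc20 (3.68), an activator of the anaphase-promoting complex. Racgap1 (3.52), Stmn1 (3.48), Ccna2 (3.43), Cenpe (3.41), Tpx2 (3.36) and Prc1 (3.29) completed the 12 highest genes. All 12 passed the filter through the cycling cells alone, which favours high ratios, so their rank is a description only. Among cyclins and their inhibitors, 0 of 4 measured genes of 13 reached 2-fold in both libraries. Ccnd1, the G1 cyclin, was at 0.960 against 0.495 UMIs per 10000 in the library labelled week 6 Fas+/+ and at 1.75 against 0.418 in that labelled week 6 Fas-/-. For Cdkn1a, which encodes the inhibitor p21, the levels were 2.42 against 1.80, and 1.43 against 1.97, without a shared direction.

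Of the 6 profibrotic genes, 1 was at least 2-fold higher in both libraries, Cthrc1, where 5.27% of all genes were. The list had a median log2 ratio of 0.84. Cthrc1 stood at 9.58 UMIs per 10000 in cycling cells against 1.33 in others in the library labelled week 6 Fas+/+ (log2 ratio 2.76), and at 3.91 against 1.13 in that labelled week 6 Fas-/- (1.71). It was detected in 7 of 22 cycling cells (31.8%, against 15.3% of others) and in 16 of 31 (51.6%, against 11.9%). Cthrc1 was thus higher in cycling cells by level and by detection in both libraries, although most of the 22 cells labelled week 6 Fas+/+ had no UMI of it. In cells with Cdh5, which should lack Cthrc1, it was detected in 12.5% and 8.86%, at median depths of 5679 and 4682 UMIs, values near those of the other mesenchymal cells. The part of free RNA or of mixed droplets in these shares was not tested. At 3000 UMIs per cell the shares were 26.3% in cycling, 7.64% in other and 7.48% in Cdh5 cells, and 27.6%, 6.28% and 5.29%. Spp1 stood at 75.4 against 52.0 and at 249 against 81.2, and was detected in 21 of 22 and 29 of 31 cycling cells, though also in 61.5% and 60.1% of cells with Cdh5. Tnc was at 9.18 against 3.63 and at 6.82 against 3.62. Postn was higher in the library labelled week 6 Fas+/+ alone (7.74 against 3.64, and 2.30 against 2.45), and Thbs1 was lower in both (15.5 against 17.2, and 11.3 against 16.4). The structural matrix genes as a list had a median of 0.35 over 14 genes. Of these, 1 was at least 2-fold lower in both libraries, a share near the 7.43% of all genes. It was the elastin gene Eln (9.68 against 26.1, and 11.6 against 27.0). Col1a1 was at 86.3 against 47.1 and at 66.7 against 45.1, while the proteoglycan gene Dcn was at 7 against 24.4 and at 7.91 against 17.3 and the fibroblast receptor gene Pdgfra at 1.62 against 4.97 and at 2.22 against 4.99. In these sums, cycling cells thus had more Col1a1 RNA and less Dcn, Pdgfra and Eln RNA than other mesenchymal cells of the same libraries. Col1a1 was uneven between cycling cells, so its sums need not hold for most of them. Labelled week 6 Fas+/+, 1 cell had 1203 Col1a1 UMIs of 33454 and another 8 of 26990. Labelled week 6 Fas-/-, 1 cell had 820 of 49111 and another 1 of 44274.

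Genes of the alveolar and adventitial sets were low in cycling cells. Summed over all 6 Wnt2 genes the level was 7.27 UMIs per 10000 in cycling and 23.8 in other cells labelled week 6 Fas+/+, and 7.24 and 26.7 in those labelled week 6 Fas-/-. Over all 6 adventitial genes it was 0.991 and 11.8, and 3.71 and 11.4. In the Wnt2 set 4 of 5 measured genes were at least 2-fold lower in both libraries, where 7.43% of all genes were. Their median log2 ratio over the 5 was -1.91. Tcf21, a transcription factor of alveolar fibroblasts, was at 0.519 UMIs per 10000 against 3.37 in the library labelled week 6 Fas+/+ and at 0.624 against 3.72 in that labelled week 6 Fas-/-. Npnt was at 2.66 against 8.41 and at 2.08 against 9.93, and Limch1 at 1.92 against 8.05 and at 1.90 against 8.65. The exception was Plin2, a coat protein of lipid droplets, at 1.45 against 1.16 and at 1.99 against 1.25. Wnt2 itself was detected in 1 of 22 cycling cells against 33.1% of others, and in 3 of 31 against 31.6%. In the adventitial set 4 of 5 measured genes were at least 2-fold lower in both libraries (median -1.78). All 5 passed the filter through the other cells alone, as did Tcf21 and Col13a1 of the Wnt2 set, which favours lower ratios, so these counts add nothing to the sums. Clec3b was at 0.220 against 5.66 and at 1.26 against 5.48, and Pi16, on 4 and 22 UMIs, at 0.063 against 1.64 and at 0.221 against 1.39. The fifth, Rbp4, had 0 UMIs in cycling cells labelled week 6 Fas+/+ but 1.04 against 1.06 UMIs per 10000 in those labelled week 6 Fas-/-.

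Among the 8 lowest genes of all were Inmt, a methyltransferase (0.645 against 12.9 UMIs per 10000, and 0.977 against 13.8), and the flavin monooxygenase gene Fmo2 with a log2 ratio of -3.16. Ogn (-3.08), a small proteoglycan, Mettl7a1 (-2.96) and Clec3b (-3.10) were the others with more than 3 UMIs in cycling cells of both libraries. Wisp2, a Wnt-induced matrix protein, had 1 UMI in the 22 cycling cells labelled week 6 Fas+/+, a ratio of 0.00817 to other cells (95% exact interval 0.000207 to 0.0455), and 36 UMIs in those labelled week 6 Fas-/- (0.172, 0.12 to 0.238). Adamts15, a matrix protease, had 1 and 17 UMIs and ratios of 0.0139 (0.000353 to 0.0778) and 0.122 (0.0709 to 0.195). The lowest gene was Xist, described further on. Of these lowest genes, all but Fmo2 passed the filter through the other cells alone, which favours low ratios, so their rank is a description only. In the inflammatory set 1 gene was at least 2-fold higher (Ccl2, 2.58 against 1.11 and 4.30 against 1.86) and 1 lower (C3, 3.45 against 14.6 and 3.46 against 12), with a median of -0.20. Over all genes, 5.27% were 2-fold or more higher in both libraries and 7.43% lower. In the Hhip myofibroblast set 1 of 5 measured genes was at least 2-fold lower in both libraries, Hhip itself (0.173 against 2.15 and 0.755 against 2.26). Hhip also passed the filter through the other cells alone, which favours a low ratio, so this count is a description only.

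**Figure D3:**
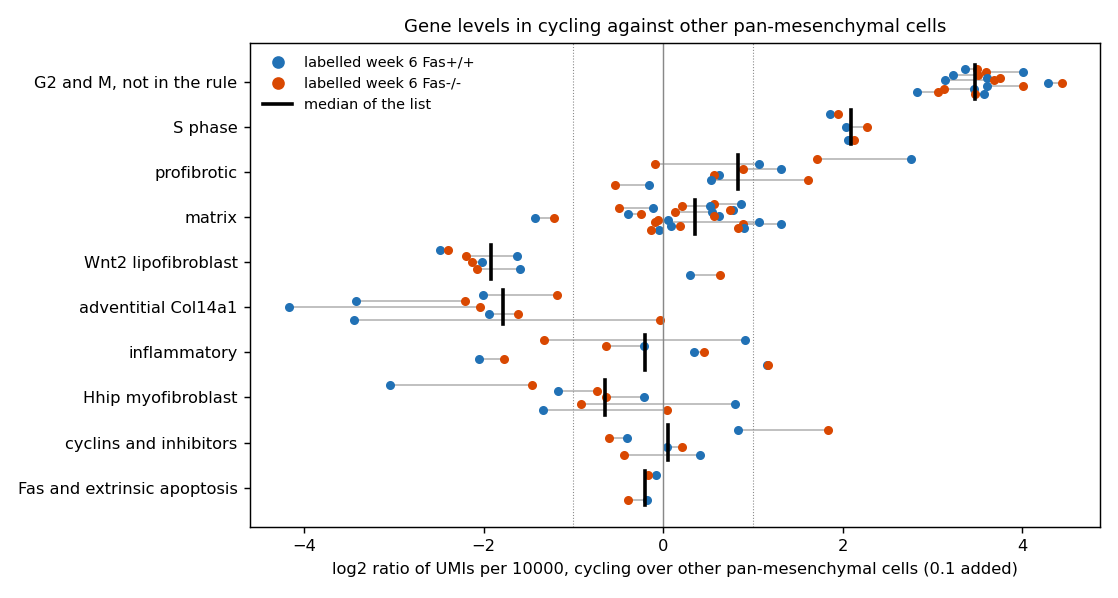
Log2 ratios of UMIs per 10000 in cycling over other pan-mesenchymal cells (0.1 added), 1 pair of points per gene with at least 1 UMI per 10000, for the libraries labelled week 6 Fas+/+ (blue) and Fas-/- (orange), by gene list; black bars are list medians and dotted lines 2-fold. G2 and M genes lie farthest right (median 3.48) and Wnt2 genes left of 0 (median -1.91) apart from Plin2, but the level filter passed the G2 and M genes through cycling cells alone and Tcf21 and Col13a1 through other cells alone, which favours the side they lie on.

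Fas RNA was about as abundant in cycling as in other cells, at 0.598 against 0.585 UMIs per 10000 in the library labelled week 6 Fas+/+ and at 0.523 against 0.619 in that labelled week 6 Fas-/-. At 3000 UMIs per cell it was detected in 10.5% of cycling cells against 15.1% of others, and in 13.8% against 16.1%. Cells with Cdh5 had it in 45.5% and 41.3%. These counts come from 3′ ends or whole genes and do not show whether exon 9 was deleted. Of the 11 genes of Fas and extrinsic apoptosis, 2 reached 1 UMI per 10000 and neither differed by 2-fold (median log2 ratio -0.21).

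Markers of other cell types were scarce in the cycling pan-mesenchymal cells. None of the 6 blood endothelial, 6 lymphatic endothelial, 6 epithelial, 6 immune or 6 erythroid genes reached 1 UMI per 10000. Summed over the 6 blood endothelial genes the level was 0.378 UMIs per 10000 in cycling and 1.04 in other cells labelled week 6 Fas+/+, and 0.594 and 0.704 in those labelled week 6 Fas-/-. For the 6 immune genes it was 0.0472 and 0.0457, and 0.594 and 0.0461. At 3000 UMIs the immune set was carried by 1 of 33 cycling cells labelled week 6 Fas-/- and by 0 of 1930 others. Doublets were scored with Scrublet, which called 46 of the 12059 kept cells (0.381%) and 0 of the 73 cycling cells. Whether the caller could find doublets in these libraries was not tested, and neither was the part of doublets in these deep cells.

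Cycling cells also differed from others in their sex-linked transcripts, a pattern noticed after the levels were seen. Each pan-mesenchymal cell was classed by UMIs of Xist, the RNA of the inactive X chromosome, and of the Y-linked genes Ddx3y, Uty, Eif2s3y and Kdm5d. Of the 22 cycling cells labelled week 6 Fas+/+, 16 had Y-linked transcripts only (72.7%) and 0 had Xist only, against 663 (49.6%) and 491 (36.8%) of 1336 others. In that labelled week 6 Fas-/-, 28 of 31 had Y-linked transcripts only (90.3%) and 0 had Xist only, against 1239 (61.5%) and 487 (24.2%) of 2015. Both libraries thus held cells of either class, and no cycling pan-mesenchymal cell of them had Xist alone. Summed over the cells, Xist had 3 UMIs in cycling cells against 7199 in others (ratio 0.0143, 95% exact interval 0.00296 to 0.0419) and 2 against 7032 (0.00833, 0.00101 to 0.0301).

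Cells of the Y-linked class were cycling in 2.36% (1.35 to 3.80, 16 of 679) and 2.21% (1.47 to 3.18, 28 of 1267). In the Xist class the counts were 0 of 491, which allows up to 0.611%, and 0 of 487, which allows up to 0.616% (exact upper limits 0.748% and 0.755%). Depth and profibrotic genes moved with the classes. Among other cells with the profibrotic set, 438 of 648 and 742 of 1008 were of the Y-linked class, and among other cells over 20000 UMIs 324 of 399 and 417 of 477. Within cells over 20000 UMIs the cycling counts were 11 of 335 and 22 of 439 in the Y-linked class and 0 of 53 and 0 of 37 in the Xist class, which allow up to 5.66% and 8.11%, so a difference was not detectable among the deepest cells. Of the cells with Cdh5 and the rule genes, 0 of 20 labelled week 6 Fas+/+ had Xist alone, against 743 of 1389 other Cdh5 cells, but 1 of 3 labelled week 6 Fas-/- did. The single cycling pan-mesenchymal cell labelled week 3 Fas+/+ had Xist alone. How many of the 4 pooled mice gave the cycling cells cannot be told from these files.

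**Figure D4:**
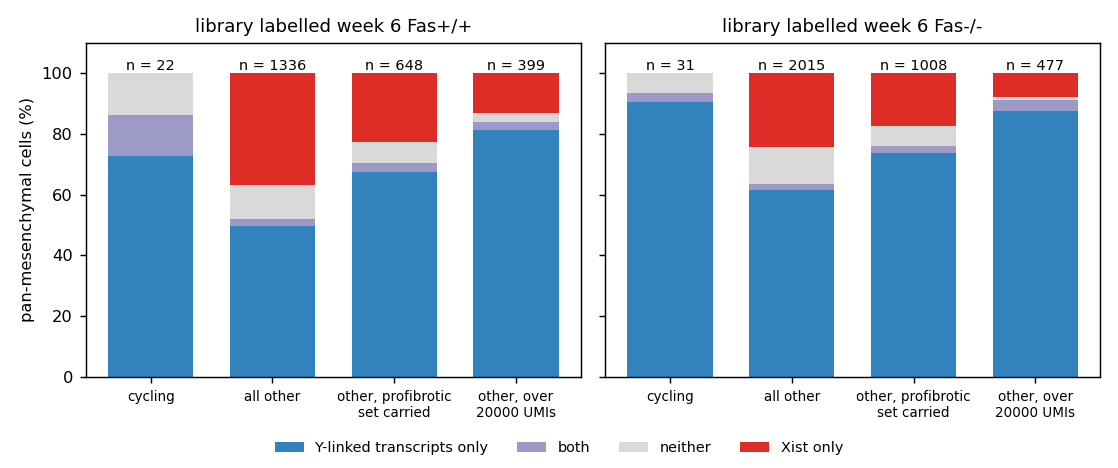
Percentage of pan-mesenchymal cells without Cdh5 by their Y-linked and Xist transcripts in the libraries labelled week 6 Fas+/+ (left) and Fas-/- (right), for cycling cells, all other cells, other cells with the profibrotic set and other cells over 20000 UMIs (n above each bar). No cycling cell shows Xist only, against 36.8% and 24.2% of all other cells.

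A narrower set of comparison cells was also used, 438 and 742 other cells with both the profibrotic set and Y-linked transcripts only. Against them 78 genes were at least 2-fold higher and 74 lower in both libraries, and the median log2 ratio over all genes was 0.16. Summed over all 24 other G2 and M genes, these cells had 0.331 and 0.327 UMIs per 10000, against the 20.7 and 21.1 of cycling cells given above. Over the 16 S phase genes they had 1.74 and 1.76, against 10.3 and 12.4. The 6 Wnt2 genes summed to 15.4 and 20.6 in these cells, against 7.27 and 7.24 in cycling cells, and the 6 adventitial genes to 6.09 and 6.29, against 0.991 and 3.71. Both lists thus lay nearer to the cycling cells than in the wider comparison, and still above them. The 6 profibrotic genes summed to 129.7 and 169 in these cells, against 119.4 and 275.0 in cycling cells, so their order differed between the libraries, in a comparison that selects the other cells on the same genes. Cthrc1 had a median log2 ratio of 1.51. The 14 matrix genes, which share Postn, Tnc and Col12a1 with the profibrotic list, summed to 390.9 and 347 against 345 and 284.

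In bulk the 7 genes were tested across libraries, which counted reads of whole Lin- populations. A bulk level cannot tell fewer cycling cells from less mitotic RNA in each. Library totals ran from 11819700 to 25189096 reads, 15773 genes were tested with edgeR's quasi-likelihood test and Benjamini-Hochberg adjustment, and n was 4 in each group. All 7 genes rose at week 3 in Fas+/+ mice against naive mice, where 22.1% of all genes were called higher. The count was 5 to 7 when 1 library was left out, and 6 with the replicate block. The log2 fold changes ran from 1.53 for Ube2c to 3.05 for Cdk1, with a median of 2.67 beside 0.01 over all genes. In Fas-/- mice at week 3, 4 of 7 rose (Top2a, Cdk1, Ccnb1 and Cenpf, by 2.03 to 2.20 on the log2 scale), where 17.2% of all genes were called higher. Leaving out 1 library moved that count between 2 (without naive replicate 1) and 6 (without naive replicate 4). Both comparisons share the naive libraries.

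The values by library show how uneven the groups were. Mki67 was at 8.83, 10.5, 14.2 and 42.3 CPM in naive libraries and at 12.6, 92.8, 103 and 68.5 CPM in Fas+/+ libraries at week 3. In Fas-/- libraries at week 3 it was at 44.1, 56.2, 46.5 and 14.6 CPM. The first Fas+/+ and the fourth Fas-/- library were low in their groups, and both groups overlapped the naive one. Cdk1 was at 0.603, 0.839, 1.72 and 2.16 CPM in naive libraries, at 1.42, 15.1, 19.1 and 8.82 CPM in Fas+/+ libraries and at 7.16, 8.67, 5.26 and 2.29 CPM in Fas-/- libraries at week 3. Its increase of 3.05 on the log2 scale in Fas+/+ mice had an SE of 0.61 (edgeR adjusted p = 0.000857), and that of 2.14 in Fas-/- mice an SE of 0.60 (edgeR adjusted p = 0.0122). In Fas-/- mice the lowest week 3 value of Cdk1 (2.29 CPM) lay just above the highest naive value (2.16 CPM). The other rule genes overlapped the naive libraries in both genotypes, as did Cdk1 in Fas+/+ mice. The share of all genes without such overlap was not counted. Top2a was at 1.68, 3.11, 4.11 and 9.22 CPM in naive libraries, at 4.37, 44.8, 56.1 and 33.6 CPM in Fas+/+ and at 26.2, 29.4, 21.3 and 6.62 CPM in Fas-/- libraries at week 3. The same 2 libraries were again the lowest of their groups.

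Those 2 libraries also stood apart in other markers. Cdh5 was at 2651 CPM in the first Fas+/+ library of week 3, against 657 to 874 CPM in the other 3, and at 2386 CPM in the fourth Fas-/- library, against 158 to 295 CPM. Xist was at 599 CPM and Ddx3y at 0.0491 CPM in the first Fas+/+ library, whereas the others of its group had 3.95 to 74.2 CPM of Xist and 50.3 to 59.8 CPM of Ddx3y. In the fourth Fas-/- library Xist was at 0.306 CPM, against 71.5 to 309 CPM in the other 3. Without both libraries all 7 rule genes were called higher at week 3 in each genotype, 7 of 7 in Fas+/+ and 7 of 7 in Fas-/- mice, an alternative chosen after seeing the data. Since both were the lowest of their groups in Mki67, Cdk1 and Top2a, leaving them out favours more calls, and nothing is concluded from it. Whether these 2 libraries carry the right labels cannot be told from these files, and the week 3 values rest on the labels as given.

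Markers of other cells moved with week 3 as well. All 6 blood endothelial genes rose in Fas+/+ and 5 of 6 in Fas-/- mice (median log2 fold changes 4.58 and 3.96), with Pecam1 the most abundant in every library. The summed level was 111 to 282 CPM in naive libraries, 1221 to 4784 CPM in Fas+/+ and 363 to 4363 CPM in Fas-/- libraries at week 3. Within week 3 the libraries highest in this list were the lowest in mitotic genes. All 6 lymphatic endothelial and all 6 epithelial genes rose in both genotypes, and 5 of 6 immune genes in each. Of all genes, 22.1% were called higher in Fas+/+ and 17.2% in Fas-/- mice. All 6 erythroid genes fell in both genotypes, where 19.2% and 14.8% of all genes were called lower. The erythroid genes summed to 2980 to 9591 CPM in naive libraries and to 17.1 to 89.8 CPM at week 3. The part of these cells in the mitotic levels was not tested.

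The wider cell cycle followed the rule genes in bulk. Of 24 other G2 and M genes, 23 rose at week 3 in Fas+/+ mice (median log2 fold change 2.54) and 19 in Fas-/- mice (1.72). Of 16 S phase genes, 14 and 10 rose (medians 1.13 and 0.70). Over all genes, 22.1% and 17.2% were called higher in the 2 comparisons, with medians of 0.01 and 0.02. The identity genes that single cycling cells carried also moved, since 5 of 6 profibrotic genes rose in each genotype while 5 of 6 Wnt2 genes fell in Fas+/+ mice, and 3 fell and 1 rose in Fas-/- mice (19.2% and 14.8% of all genes were called lower).

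At week 6 no rule gene was higher than in naive mice. In Fas+/+ mice 0 of 7 were called by edgeR in either direction (3.57% of all genes were called higher and 1.74% lower), with 1 gene at an unadjusted p under 0.05 and 0 called by DESeq2, and log2 fold changes of -1.34 to -0.44. In Fas-/- mice Ube2c fell by 2.31 on the log2 scale (SE 0.67, edgeR adjusted p = 0.0464, n = 4 libraries a group), where 2.81% of all genes were called lower and 3.66% higher. DESeq2 called 3 rule genes lower there, and 3 had an unadjusted p under 0.05. Ube2c was at 1.12, 1.40, 4.20 and 4.98 CPM in naive libraries and at 0.574, 1.18, 0.169 and 0.393 CPM in these, so the groups overlapped. The call was lost in 5 of 8 fits that left out a library. Erythroid genes fell at week 6 too, 6 of 6 in Fas-/- mice (median log2 fold change -6.88) and 5 of 6 in Fas+/+ mice (-4.98). In Fas+/+ mice 6 of 6 epithelial, 3 of 6 immune and 2 of 6 lymphatic endothelial genes rose, and in Fas-/- mice 3 of 6 lymphatic endothelial genes. The part of these cells in the mitotic levels was not tested. Mki67 was at 5.81, 14.1, 6.99 and 10.8 CPM in Fas+/+ and at 5.80, 6.35, 2.99 and 5.70 CPM in Fas-/- libraries at week 6. Of the other G2 and M genes 1 of 24 was lower in each genotype, and of the S phase genes 0 of 16 were called.

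The genotypes were not told apart by these genes. At week 3, 0 of 7 rule genes were called between Fas-/- and Fas+/+ mice by edgeR (0.171% of all genes were called in either direction), 0 at an unadjusted p under 0.05, with log2 fold changes of -0.91 to -0.52. At week 6, 0 of 7 were called (0.0507% of all genes), 0 at an unadjusted p under 0.05, with log2 fold changes of -0.98 to 0.53. DESeq2 called 0 in both. The change of the genotype difference between weeks had a lowest edgeR p of 0.109 (adjusted p = 0.756, for Cdk1). A p that misses the threshold does not show that the genotypes are alike. Bulk Fas averaged 41.0 and 44.2 CPM in Fas+/+ and Fas-/- mice at week 3 and 31.4 and 40.4 CPM at week 6, counts over the whole gene that do not check the deletion.

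**Figure D5:**
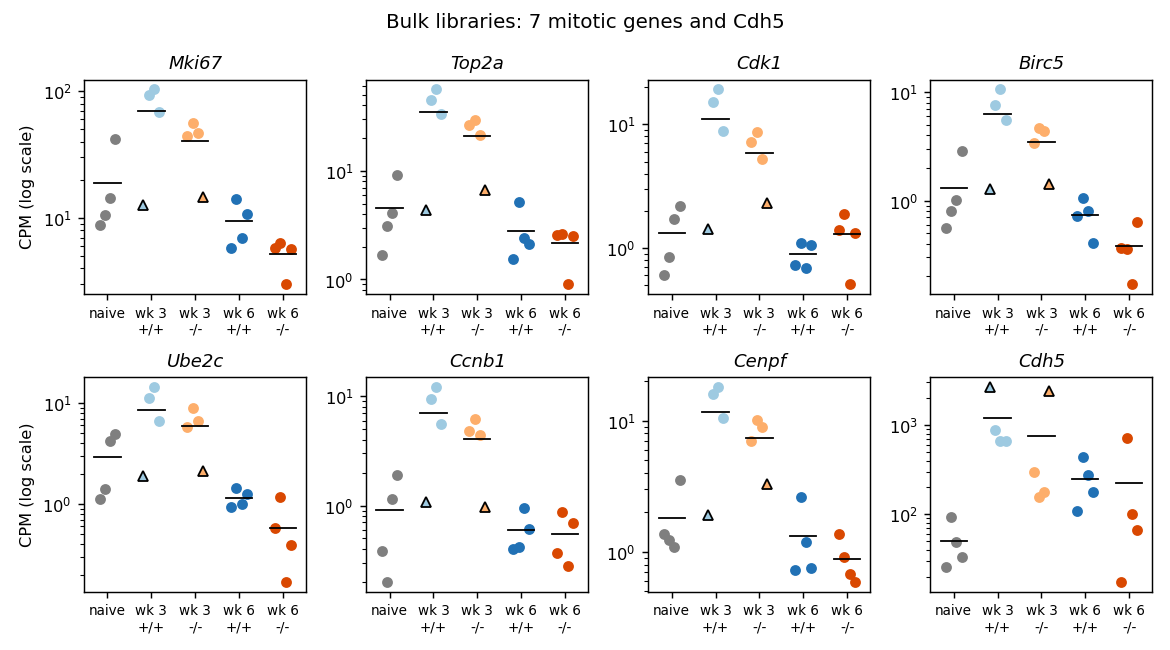
CPM (log scale) of the 7 rule genes and Cdh5 in each of the 20 bulk libraries by group (n = 4 each), with the group mean as a line; triangles mark the first Fas+/+ and the fourth Fas-/- library of week 3. Both are the lowest of their groups for Mki67 (12.6 and 14.6 CPM) and the highest for Cdh5 (2651 and 2386 CPM).

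Set side by side, bulk libraries had their high mitotic levels at week 3 and single-cell libraries held their cycling cells under the label week 6. In pan-mesenchymal cells Mki67 had 6 UMIs in 1833 cells labelled week 3 Fas+/+ and 119 in 1358 cells labelled week 6 Fas+/+. This is the opposition seen for Cthrc1 above. It was also seen for Spp1, at 2.37 and 52.7 UMIs per 10000 in these 2 libraries and at 1776 and 159.8 CPM in bulk. The times of the cycling cells thus cannot be told from these files alone.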

How the data were processed

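Lin- lung cells were profiled by bulk RNA-seq (20 libraries, 5 groups of 4) and by single-cell RNA-seq (5 libraries, 1 per condition, 4 pooled mice each). Bulk counts were deposited by the authors as raw read counts per gene (HISAT2, HTSeq and GRCm38 in the submitters' notes; Ensembl genes). Single-cell counts were deposited by the authors as Cell Ranger UMI counts (version 3.0.2 in the file headers), with 13900 barcodes. A deposited table of counts divided by size factors was not used here.

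Kept cells had 200 to 7500 detected genes and no more than 20% of UMIs from mitochondrial genes. A set of 6 genes was carried with 3 detected (4 for the pan-mesenchymal set). Thinning drew 3000 UMIs per cell without replacement, which left out 723 and 773 shallower cells of the libraries labelled week 6. Bulk counts were filtered by filterByExpr, scaled by TMM and fitted over all 5 groups with edgeR 4.0.16 in R 4.3.3, adjusted by Benjamini-Hochberg at 0.05, with DESeq2 1.42.0 as an alternative. Intervals were computed with scipy 1.17.1 and doublets scored with scanpy 1.11.5. Scripts were tested on simulated data. Total UMIs ran from 6098715 to 39092679 per single-cell library. Named genes were the rule genes, the lists, and the 12 highest and 8 lowest by median log2 ratio. The labels do not say that replicate libraries came from separate mice, though the study's text describes n as individual animals and gives 4 for bulk. The p-values measure the spread between these libraries, which differed in Xist and Ddx3y within groups. The members, gene lists and tests were chosen with earlier results of these data known.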

Additional observations from a re-analysis of the deposited data

Results flagged for a closer look

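Of 35 groups of 4 bulk libraries (7 rule genes in 5 groups), 3 held a library far from the others. The nominal rate is about 1 in 20, but the 7 genes share the same libraries, so no excess over it can be read. Naive replicate 4 had 42.3 CPM of Mki67, against 8.83 to 14.2 CPM in the other naive libraries, and 3.51 CPM of Cenpf, against 1.10 to 1.38 CPM. Replicate 3 of Fas-/- mice at week 6 had 0.903 CPM of Top2a, against 2.51 to 2.61 CPM.

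Cells outside the rule also held mitotic genes. Above the limit of 7500 genes, 13 cells labelled week 6 Fas+/+ and 11 labelled week 6 Fas-/- had at least 3 rule genes and no Cdh5. Among cells with Cdh5, 2, 2, 20 and 3 met the gene count in the libraries labelled week 3 Fas+/+, week 3 Fas-/-, week 6 Fas+/+ and week 6 Fas-/-. Of the cells with Cdh5, those were 1.42% (20 of 1409) and 1.11% (3 of 271) in the libraries labelled week 6.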

How the results depend on the processing

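Replicate numbers did not pair the bulk libraries (correlations of deviations -0.40 to 0.40, and in no comparison all 4 above 0.1). With the replicate block, 6, 4, 0 and 0 rule genes were called against naive mice (week 3 Fas+/+, week 3 Fas-/-, week 6 Fas+/+, week 6 Fas-/-) and 0 and 0 between genotypes. Leaving out 1 library gave 5 to 7 calls at week 3 in Fas+/+, 2 to 6 in Fas-/- (2 without naive replicate 1), and 0 to 1 at week 6 in Fas-/- mice (0 without naive replicates 3 or 4 or Fas-/- replicates 1, 3 or 4). The single call at week 6 in Fas-/- mice became 3 with DESeq2, 2 with Ddx3y as a covariate, and 0 with no filter, with the replicate block, with only the 2 groups compared, or with Cdh5 as a covariate. Without the 2 libraries highest in Cdh5, which were also the lowest of their groups in Mki67, 7 were called at week 3 in Fas-/- mice. The covariates, the shared barcodes, the narrower comparison cells and the profibrotic shares thinned or without Scrublet calls were chosen after seeing the data.

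The naive share became 0 after thinning or among pan-mesenchymal cells, and that labelled week 3 Fas-/- became 0 among pan-mesenchymal cells or without barcodes that have more UMIs in another library. The share labelled week 6 Fas+/+ was 1.45% with 2 of 7 genes, 0.477% thinned, 1.51% with Cdh5 of any level, 1.58% over cells without Cdh5 and 1.40% among pan-mesenchymal cells. That labelled week 6 Fas-/- was 2.00% with 2 of 7 genes, 0.849% with 4 and 0.507% thinned. In the latter library the pan-mesenchymal share was 94.6% with 3 of 6 genes and 60.6% thinned, and the profibrotic share 60.6% thinned. With a pseudocount of 1, 30 genes were 2-fold higher and 60 lower. Lower genes numbered 94 against profibrotic cells and 74 against those with Y-linked transcripts only. The Xist ratio reversed to 0.41 against cells with Y-linked transcripts only, by construction, since those cells hold no Xist. With at least 4 of the 7 rule genes required of a cycling cell, level ratios were not obtained, as fewer than 2 libraries had 20 such cells. The cause of the other differences was not tested. Single genes in bulk kept direction and call in 614 fits, lost the call in 26 and gained it in 11. At 1 library per condition and 73 cells, the single-cell shares rest on few cells, and depth moved several of them.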
